A study of Mus musculus with 24 samples.

Results

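EBF1 peaks that lie inside genes but away from promoters were examined together with the expression of the genes that hold them. EBF1 is a transcription factor without which lymphoid progenitors do not commit to the B-cell fate. Binding inside introns and other gene bodies is common for lineage factors, and such sites often act as enhancers of the gene they lie in or of a neighbour. PAX5, a second B-lineage transcription factor, is encoded by a gene that EBF1 is known to activate, and the study concerned how EBF1 and PAX5 act on Myc, a growth-promoting gene, during pro-B cell expansion.

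A peak was a member when its centre fell between the start and end of a gene in the count table and its nearest gene start was over 1 kb and at most 100 kb away. This held for 6087 of 17230 EBF1 peaks (35.3%). The members lay in 3655 host genes of the 24506 genes in the table. Of these hosts, 3462 were protein-coding, 185 were non-coding RNA genes and 8 were pseudogenes. A further 638 peaks lay inside a gene but over 100 kb from every gene start and were not members. At the inner limit, the peak in Slc9a7 at 1001 bp from the nearest start (score 18) was a member and the peak in Eif4e3 at 1000 bp (score 23) was not. At the outer limit, a peak in Itga9 at 99991 bp (score 32) was a member and one in Nav2 at 100194 bp (score 33) was not.

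The peaks came from chromatin immunoprecipitation in 230-238 cells, a mouse pre-B line transformed with Abelson virus, with 2 immunoprecipitated samples and 1 input merged into 1 list. Expression came from other cells, namely fetal liver pro-B cells of C57BL6/J background. They were cultured with OP9 stromal cells, FLT3 ligand, KIT ligand and interleukin-7 and carried the retroviral vector pMiG. The 7 RNA groups held 2 libraries each. They were wild type with empty vector, Ebf1-KO cells with empty vector, with Ebf1 or with Pax5, and Pax5-KO cells with empty vector, with Ebf1 or with Pax5. No RNA was measured in the line that gave the peaks, so binding in the RNA groups themselves was not measured. Nothing in the labels states whether the paired libraries of a group are separate cultures, so the p-values reflect the spread between these libraries alone, and that spread may be technical. A change in bulk RNA cannot tell fewer cells of a type from less RNA per cell.

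The column headers of the count table carry 1 of 2 codes that look like dates, 1 shared by the first libraries of all 7 groups and the other by the second ones, so the replicate number and that code cannot be told apart. Library totals ran from 16118136 to 42076718 exon counts. Levels are given as TMM-scaled CPM, one value per library. Ebf1, which is not a host, stood at 966 and 1102 CPM in wild-type libraries. In Ebf1-KO, 244 and 282 CPM of Ebf1 exon reads remained, with 857 and 893 after Ebf1 and 252 and 256 after Pax5. In Pax5-KO Ebf1 stood at 315 and 241 CPM with empty vector, 1644 and 1483 with Ebf1 and 488 and 589 with Pax5. That last change was 0.95 on the log2 scale (edgeR adjusted p = 0.009). The Ebf1 vector thus did not give like Ebf1 levels in the 2 knockouts. The summed level of 12 pro-B identity genes was 11559 and 10765 CPM in wild-type libraries. It was 330.0 and 382 CPM in Ebf1-KO, and 1806 and 1819 CPM in Pax5-KO. Ebf1 and Pax5 are among these 12 genes, so the sum is not independent of the genotype. Most of the sum in Ebf1-KO was Ebf1 exon reads, at 244 and 282 CPM. Summed markers of other lineages were higher in both knockouts with empty vector. The sum of 19 myeloid markers was 105 and 114 CPM in wild-type libraries, where Cebpa and Ctsg were at 0, against 902 and 920.4 CPM in Ebf1-KO, then 746 and 979 in Pax5-KO. The sum of 15 NK and innate lymphoid markers was 3.88 and 18.8 CPM in wild-type libraries against 261 and 312 CPM in Ebf1-KO, then 525 and 567 in Pax5-KO. The 18 T-lineage markers summed to 496 and 489 CPM in wild-type libraries, 829 and 991 in Ebf1-KO, then 1601 and 1701 in Pax5-KO. With Pax5 in Pax5-KO the T-lineage sum was 517 and 516 CPM and the myeloid one 206 and 209.8. With Pax5 in Ebf1-KO these 2 sums were 875 and 987 CPM and 1013 and 950.5, and the NK one was 486 and 456. With Ebf1 in Ebf1-KO the 3 sums were 988 and 1120.4 CPM, 499 and 467, and 139 and 119. The 10 stroma markers summed to 0 to 9.46 CPM in 6 groups and to 44.6 and 63.7 in Ebf1-KO with Pax5. The part of these markers in the results below was not tested.

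A small number of members sat at starts that the count table does not use. Of the 6087 members, 191 (3.14%) were within 1 kb of a start in the RefSeq promoter table of GRCm38.p6, 118 of them at a start of the host itself. The motif searched was TCCCNNGGGA, the palindromic core of the EBF site, which reads the same on both strands and overlaps no other motif searched. It occurred in 7 of 81 promoter windows (8.64%) that a member overlapped by at least 50 bases, in 71 of 1965 windows (3.61%) under peaks within 1 kb of a gene start, in 210 of 30672 windows (0.685%) under no EBF1 peak, and in 297 of all 32851 windows (0.904%). Each window spans 250 bases before to 50 after a start. The 4 sequences below, in mm10 coordinates, are the motif copies under the 4 highest-scoring of these members, with the motif in capitals. They are shown because they place an EBF core inside a host gene, at the bound interval. In Capzb, Cd22 and Mier1 the motif lay 166, 39 and 129 bp before a RefSeq start of the host itself. In Col26a1 it lay 51 bp before the start of Gm20485. Only the 74 members (1.22%) that overlap a promoter window could be searched, so the motif shares do not describe the other members. A match is a description of the letters, not a mapped site.
Col26a1 member of score 216, at the RefSeq start of Gm20485 inside Col26a1, chr5:136870401-136870460, minus strand: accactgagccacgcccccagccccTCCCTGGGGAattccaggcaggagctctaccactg
Capzb member of score 128, chr4:139193910-139193969, plus strand: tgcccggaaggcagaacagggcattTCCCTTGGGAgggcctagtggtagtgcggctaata
Cd22 member of score 72, chr7:30879043-30879102, minus strand: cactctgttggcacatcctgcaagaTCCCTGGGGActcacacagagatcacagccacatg
Mier1 member of score 59, chr4:103119226-103119285, plus strand: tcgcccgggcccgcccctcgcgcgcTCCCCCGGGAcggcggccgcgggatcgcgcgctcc

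The motif lay 55 bp from the peak centre in Col26a1, 14 bp in Capzb, 39 bp in Cd22 and 6 bp in Mier1. The 4 host genes did not move alike. Cd22, a B-cell surface lectin, was at 278 and 305 CPM in wild-type cells, 18.6 and 15.9 in Ebf1-KO, 11.9 and 7.56 after Ebf1 and 85.3 and 53.1 after Pax5. The log2 change in Ebf1-KO against wild type was -4.08 ± 0.73 (SE; edgeR adjusted p = 0.0011). A difference is called when this adjusted p is under 0.05, and Cd22 was not called with either vector in Ebf1-KO. Capzb, an actin-capping subunit, and Mier1, a transcriptional corepressor, were called in none of the 6 comparisons. In Ebf1-KO with Ebf1 against empty vector, Capzb had a log2 difference of -0.01 and Mier1 of -0.20. Col26a1 is described below with the hosts that rose after Ebf1.

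Members had the same median strength as peaks between genes and a higher one than peaks at promoters. The findPeaks score, the authors' measure of peak strength, had a median of 44 in members (quartiles 29 and 78.5), 44 in the 5668 peaks between genes, 41 in the 1723 peaks over 100 kb from every start or on a sequence with no gene, and 36 in the 3752 peaks within 1 kb of a start. The fold over input was 13.8 at the median in members, 13.8 between genes and 8.07 at promoters. Of the 100 highest-scoring peaks, 36 were members, 41 lay between genes and 14 at promoters. The list gives 1 merged value per peak, so these differences have no replicate error.

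**Figure D1:**
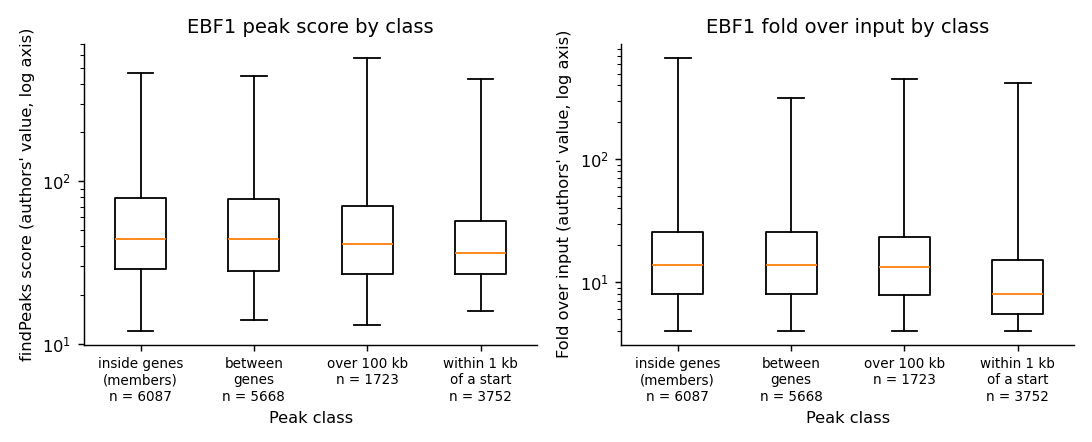
EBF1 peak score (left) and fold over input (right) for 4 classes of peaks, on log axes. Boxes show the quartiles and median and whiskers the full range; members have medians of 44 and 13.8 against 36 and 8.07 for peaks within 1 kb of a start.

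Within genes the members were spread over the whole span. The median distance to the nearest gene start was 17146 bp. Between 1 and 5 kb from a start lay 18.8% of members, with a median score of 46, and between 50 and 100 kb lay 16.4%, with a median score of 41. Among the 5956 members inside exactly 1 gene, 29.8% lay in the first 25% of the host's span, 26% between 25 and 50%, 21.3% between 50 and 75% and 22.9% beyond. For 1768 members (29%) the nearest start belonged to a gene other than the host. A single member was held by 2361 hosts, while 161 hosts held 5 or more. Hosts had a median span of 44.6 kb, and other genes of the table one of 10.6 kb.

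The strongest members lay in genes with very different responses. Slc25a26, the mitochondrial carrier of S-adenosylmethionine, held a peak of score 463 and stayed between 1.48 and 15.3 CPM over the 14 libraries without a call. Ptpru, a receptor phosphatase, held a peak of score 346 but was counted at no more than 0.753 CPM in any library. High scores occurred both in expressed hosts without a call and in hosts with next to no reads.

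Tmem108, a transmembrane protein with 8 members and a top score of 450, rose after Ebf1. It was at 53.3 and 61.6 CPM in Ebf1-KO and 137 and 189 after Ebf1, with no overlap, a log2 change of 1.5 ± 0.29 (adjusted p = 0.0077). That call was lost without the second Ebf1 library (1.25, adjusted p = 0.12) or without the first (1.37, 0.13) or second (1.63, 0.057) empty-vector library. Pacsin1, an endocytic adaptor with a member of score 352, was higher in Ebf1-KO than in wild type. It was at 0.829 and 1.54 CPM in wild-type libraries against 25.8 and 26.5 in Ebf1-KO, a log2 change of 4.46 ± 0.60 (adjusted p = 8.8e-05). Sh2b3, an inhibitor of cytokine receptor signalling with 1 member of score 354 at 2.71 kb from its start, was at 124 and 119 CPM in wild-type libraries against 83.1 and 93.5 in Ebf1-KO, and was called in no comparison.

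The number of members was highest in Zmiz1, a transcriptional coactivator, with 13, apart from Bc1, whose 23 members rest on a span that does not match its RefSeq length. Bc1 is 154 bases long in RefSeq and 672332 bp in the count table, and 23 hosts had such a span or more than 1 copy. Only 20 members lay in such hosts alone. Zmiz1 was at 860 and 727 CPM in wild-type cells, 513 and 701 in Ebf1-KO and 656 and 881 after Ebf1, with no call in any comparison. Cux1, a homeodomain repressor with 10 members, was at 606 and 613 CPM in Ebf1-KO and 1254 and 1379.9 after Ebf1, a log2 change of 1.11 ± 0.19 (adjusted p = 0.0032). Mgll, Prkar1b, Ralgps1, Prkag2 and Vps8, with 10 or 11 members each, were called in no comparison. Of the 8 hosts with most members, Cux1 was the only 1 called in any comparison, and Bc1 could not be tested. So few genes do not speak for hosts with many members. Of the 155 tested hosts with 5 or more members, 18.7% rose after Ebf1 in Ebf1-KO and 20% after Pax5, and 0.645% fell in each. The shares of all genes tested were 2.21% and 3.15% higher, and 0.763% and 0.935% lower.

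Expression could be tested for 3185 hosts; the other 470 had too few counts for the filter. A host that is silent in most groups passed only if some group raised it, so these shares describe tested hosts and not all members. Across the 6 comparisons a larger share of tested hosts was called than of the 11365 other tested genes, in both directions. In Ebf1-KO against wild type, 342 hosts (10.7%) were higher and 444 (13.9%) lower, against 7.26% and 4.6% of other genes. Over all 14550 genes tested, 8.02% were called higher and 6.65% lower. The median log2 change was -0.06 in hosts and 0.03 over all genes. In Pax5-KO against wild type, which shares the wild-type libraries, 387 hosts (12.2%) were higher and 295 (9.26%) lower, with 8.65% and 5% over all genes.

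Adding a factor back gave mostly rises in Ebf1-KO. With Ebf1 in Ebf1-KO, 170 hosts (5.34%) rose and 37 (1.16%) fell, against 1.33% and 0.651% of other genes and 2.21% and 0.763% of all genes. With Pax5 in the same knockout, set against the same empty-vector libraries, 249 hosts (7.82%) rose and 37 fell, with 3.15% and 0.935% over all genes. With the replicate number as a block, 63 fell. In Pax5-KO with Ebf1, 126 hosts (3.96%) rose and 76 (2.39%) fell, with 1.75% and 1.85% over all genes. In Pax5-KO with Pax5, 120 hosts (3.77%) rose and 146 (4.58%) fell, with 1.64% and 2.4% over all genes. The share of hosts called exceeded that of other genes in all 19 settings tried for each comparison and direction, except for genes lower after Pax5 in Ebf1-KO, where DESeq2 gave 2.67% of hosts and 3.03% of other genes.

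The sizes of these counts moved with single libraries. Of the 170 hosts called higher after Ebf1 in Ebf1-KO, 74 kept the call with each of the 14 libraries left out in turn, and of the 37 lower, 5 did. Hosts higher after Ebf1 in Ebf1-KO numbered 81 without the first empty-vector library, 103 without the second and 100 without the second Ebf1 library. The 2 Pax5-KO libraries with Ebf1 were the least alike pair (Pearson r 0.895 of log2 CPM), and without the second of them 263 hosts were higher and 324 lower in that comparison. Without the second Pax5-KO empty-vector library those counts were 31 and 23, and without the first 73 were higher. Hosts lower after Ebf1 in Ebf1-KO numbered 8 to 15 without any 1 of the 4 libraries compared, and 74 and 75 without the first and second library of Pax5-KO with Ebf1. Hosts higher after Pax5 in Ebf1-KO numbered 74 without the first empty-vector library, 131 without the second, 164 and 128 without the first and second Pax5 library, and 382 and 384 without the first and second library of Pax5-KO with Ebf1. Hosts lower after Pax5 in Ebf1-KO numbered 7 to 24 without a library of Ebf1-KO with empty vector or Pax5 or the second with Ebf1, and 73 and 72 without those of Pax5-KO with Ebf1. In Pax5-KO with Pax5, 49 to 71 hosts were higher without any 1 of the 4 libraries compared, and 47 to 71 lower without either Pax5 library or the second empty-vector one. Leaving out a library of Pax5-KO with Ebf1 gave 181 higher (the first) and 240 lower (either). In Ebf1-KO against wild type, 210 were higher without the second wild-type library and 257 lower without the first empty-vector one. In Pax5-KO against wild type, 214 were higher and 160 lower without the second wild-type library, and 237 and 144 without the second empty-vector one.

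**Figure D2:**
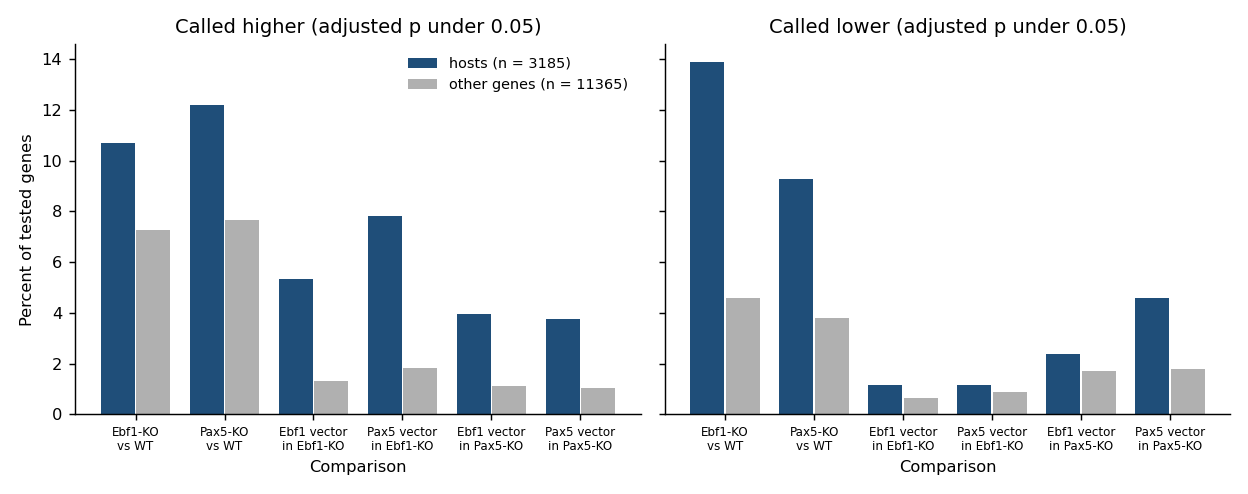
Percent of tested genes called higher (left) and lower (right) by edgeR at an adjusted p under 0.05 in 6 comparisons, for hosts of member peaks (dark bars) and other genes (grey bars). Hosts stand above other genes in all 12 pairs of bars, for example 5.34% against 1.33% higher after Ebf1 in Ebf1-KO.

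The share of hosts that rose after Ebf1 in Ebf1-KO went up with the number of members. It was 3.29% of 2005 hosts with 1 member, 6.75% of 622 with 2, 8.19% of 403 with 3 or 4, and 18.7% of 155 with 5 or more, set against 1.33% of genes with none. The share that fell stayed between 0.645% and 1.99% of hosts. After Pax5 in Ebf1-KO the rising shares were 4.99%, 8.68%, 15.9% and 20%, and after Ebf1 in Pax5-KO they were 2.89%, 5.14%, 5.46% and 9.03%. After Pax5 in Pax5-KO both directions went up, from 2.29% to 8.39% higher and from 3.44% to 6.45% lower. Longer genes hold more peaks, so the shares were also read at like span. Among genes of 30 to 100 kb, 1.64% of hosts with 1 member rose after Ebf1 in Ebf1-KO, 8.22% with 2 and 12.3% with 3 or more, and 1.25% of genes with none. In genes of 10 to 30 kb there was no such order, with 5.16%, 5.84% and 2.56% (1 of 39 hosts).

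**Figure D3:**
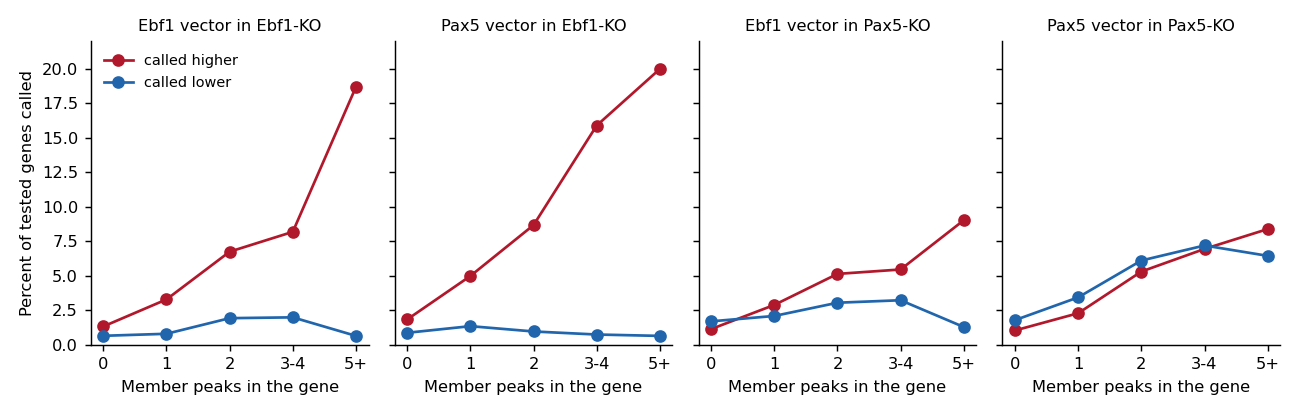
Percent of tested genes called higher (red) and lower (blue) against the number of member peaks in the gene, for the 4 vector comparisons. The rising share climbs from 1.33% to 18.7% after Ebf1 in Ebf1-KO and from 1.84% to 20% after Pax5 in Ebf1-KO; these 2 panels share their empty-vector libraries.

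The shares also went up with peak strength and with gene level. Hosts whose strongest member scored 28 or less rose after Ebf1 in Ebf1-KO in 1.68% of cases, and those with one over 164 in 11.8%. For Pax5 in Ebf1-KO the same groups gave 5.54% and 9.51%. With tested genes split by mean level into 3 groups, 7.96% of hosts and 2.65% of other genes in the highest group rose after Ebf1 in Ebf1-KO. In the lowest group the shares were 1.55% and 0.417%. By distance, 7.02% of hosts rose where the closest member was 1 to 5 kb from the host's start and 3.95% where it was over 50 kb away. After Ebf1 in Pax5-KO those shares were 3.63% and 4.94%.

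Genes with a member but no promoter peak rose in a larger share than genes with a promoter peak alone. After Ebf1 in Ebf1-KO, 4.5% of 2267 hosts without a promoter peak rose, 7.41% of 918 hosts that also had one, 2.16% of 2597 genes with a promoter peak and no member, and 0.779% of 7574 genes with no linked peak. Genes nearest to a peak between genes, with neither other kind, gave 3.02% of 1194. For members nearer to another gene's start, host and neighbour could be compared. The hosts, where not promoter-bound, rose in 4.82% of 706 cases after Ebf1 in Ebf1-KO and the neighbours in 2.73% of 512. After Pax5 in Ebf1-KO the shares were 9.35% and 1.95%. These are counts of genes in the same libraries and have no replicate error of their own. The sets, hosts and neighbours included, were not matched for span or mean level. The cause of the gaps between them was not tested.

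B-lineage transcription factors were often hosts, 25 of the 37 listed. In Ebf1-KO against wild type 14 of these 25 were lower and 2 higher (median log2 change -0.76, with 0.03 over all genes). Over all genes tested 6.65% were lower and 8.02% higher in that comparison, and 2.21% were higher and 0.763% lower after Ebf1 and 3.15% higher after Pax5 in Ebf1-KO. After Ebf1 in Ebf1-KO, Pax5, Foxo1, Lef1, Pou2af1, Ets1, Erg, Mef2d and Pou2f2 rose and Irf8 and Mef2c fell. After Pax5 in Ebf1-KO 13 rose and 0 fell by edgeR. At an unadjusted p under 0.05 these counts were 17 and 0, and by DESeq2 16 and 0. Pax5 itself is among the 13, and its values with the Pax5 vector include reads from the vector. With each library left out in turn, Pax5, Foxo1, Lef1, Pou2af1 and Erg kept their call after Ebf1, and Pou2f2, Ets1, Mef2d, Irf8 and Mef2c lost it at least once. Of the 13 calls after Pax5, 8 were kept. Of the 12 factors without a member, 6 were lower and 1 higher in Ebf1-KO than in wild type (median log2 change -1.07). After Ebf1 in Ebf1-KO 3 of the 12 rose and 0 fell, and after Pax5 2 rose and 0 fell. Ebf1 itself, the gene knocked out and supplied by the Ebf1 vector, is among the 6 and among the 3.

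Pax5 held 4 members, the strongest of score 179 at 5.11 kb from its start (chr4:44705168-44705488). Its level was 412 and 333 CPM in wild-type cells, 2.24 and 2.49 in Ebf1-KO and 37.2 and 33.1 in Ebf1-KO with Ebf1. The rise after Ebf1 was 3.89 ± 0.31 on the log2 scale (adjusted p = 2.3e-06), and both libraries stayed far under the wild-type ones. In Pax5-KO it was at 20.1 and 12.3 CPM with empty vector and 9.61 and 9.07 with Ebf1, which was not called (adjusted p = 0.13). Values with the Pax5 vector, 429 and 399 CPM for Ebf1-KO cells, then 746 and 439.6 for Pax5-KO cells, include reads from the vector. Pax5 overlaps 5730488B01Rik, and counting by strand is not given in the sources used here.

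Foxo1, a factor that activates the recombinase genes, held 2 members of scores 53 and 42. It was at 588 and 638 CPM in wild-type cells, 23.0 and 21.3 in Ebf1-KO, 258 and 236 after Ebf1 and 127 and 138 after Pax5. The change after Ebf1 was 3.48 ± 0.18 (adjusted p = 2.1e-08) and after Pax5 2.58 ± 0.18 (adjusted p = 2.0e-06). Lef1, a Wnt-pathway factor of early B cells, went from 1.97 and 1.1 CPM in Ebf1-KO to 16.9 and 21.4 after Ebf1, still far from the 382 and 404 CPM of wild type. Pou2af1, the OCA-B coactivator, held 1 weak member of score 35. It went from 0.137 and 0.104 CPM to 49.1 and 57.0 after Ebf1 (log2 change 8.75 ± 0.43, adjusted p = 1.3e-08), against 2979.9 and 2803 CPM in wild type. In all 3 genes the Ebf1 libraries lay between the knockout and wild-type libraries without overlap.

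Pre-B receptor and B-cell surface signalling genes included 26 hosts of 46 listed. Of these 26 hosts, 13 were lower in Ebf1-KO than in wild type and 2 higher. After Ebf1 in Ebf1-KO 5 rose (Blnk, Inpp5d, Pik3cd, Prkcb and Sh3bp5), and after Pax5, against the same empty-vector libraries, 13 rose. Over all genes tested 6.65% were lower and 8.02% higher in Ebf1-KO, and 2.21% and 3.15% were higher after Ebf1 and after Pax5. Of the 5 rises after Ebf1, only that of Prkcb was kept with each of the 14 libraries left out in turn, and of the 13 after Pax5, 5 were kept. The Sh3bp5 call after Ebf1 was lost without any 1 of the 4 libraries compared (adjusted p = 0.083 to 0.15) and the Inpp5d call without any 1 of 12 libraries (adjusted p = 0.052 to 0.52). No host of the list fell in either by edgeR. At an unadjusted p under 0.05 these falls numbered 4 after Ebf1 and 0 after Pax5, and by DESeq2 2 and 0. Of the 20 genes of this list without a member, 14 were lower and 1 higher in Ebf1-KO than in wild type. Their median log2 change was -5.52, against -0.92 in the 26 hosts. After Ebf1 in Ebf1-KO 11 of the 20 rose and 2 fell, and after Pax5 10 rose and 0 fell. Blnk, the adaptor downstream of SYK, was at 329.5 and 221 CPM in wild-type cells, 2.79 and 10.8 in Ebf1-KO, 28.0 and 33.3 after Ebf1 and 209.9 and 285 after Pax5. Its call after Ebf1 was lost without the first Ebf1 library (2.28, adjusted p = 0.063), the second (2.03, 0.15) or the first empty-vector library (1.48, 0.24). Prkcb, a protein kinase C used in B-cell receptor signalling, was at 38.8 and 37.6 CPM in Ebf1-KO, 189 and 189 after Ebf1 and 129 and 97.9 after Pax5. The 1 member in Prkcb, of score 111, lay 63.8 kb from its start.

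Cell cycle regulators moved in both directions. E2f2, an activator of S-phase genes, was at 626 and 573 CPM in wild-type cells, 76.1 and 83.3 in Ebf1-KO and 245 and 291 after Ebf1 (log2 change 1.75 ± 0.24, adjusted p = 6.0e-04). Ccnd2, cyclin D2, rose from 329 and 416 to 859 and 1069 CPM (log2 change 1.37 ± 0.23, adjusted p = 0.0034). Ccnd1, cyclin D1, fell from 29.9 and 42.2 to 14.2 and 9.96 CPM (log2 change -1.58 ± 0.36, adjusted p = 0.025). The Ccnd2 call was lost without the first empty-vector library (1.19, adjusted p = 0.072), and the Ccnd1 call without any 1 of the 4 libraries compared (-1.28 to -1.85, adjusted p = 0.059 to 0.38). The other 8 of the 11 hosts in this list, Cdk6 and Pvt1 among them, were not called after Ebf1 in Ebf1-KO. The shares of all genes tested in that comparison were 2.21% higher and 0.763% lower. Of the 20 genes of the cell cycle list without a member, 3 rose and 1 fell. Among 5 hosts of V(D)J recombination 0 were called in either direction by edgeR or DESeq2 after Ebf1 in Ebf1-KO, and 2 were higher and 0 lower at an unadjusted p under 0.05.

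Some cytokine receptor and homing hosts were higher in both knockouts than in wild type. Flt3, the FLT3 ligand receptor of early progenitors, held 5 members, the strongest of score 143. It was at 2.38 and 3.43 CPM in wild-type cells, 356 and 399 in Ebf1-KO, 260.3 and 253 after Ebf1 and 202 and 260.3 after Pax5. The change after Ebf1 was -0.56 ± 0.20 and was not called (adjusted p = 0.22). In Pax5-KO, Flt3 stood at 237 and 240 CPM with empty vector and 22.4 and 20.5 with Pax5 (log2 change -3.48 ± 0.22, adjusted p = 7.0e-07). Of 6 cytokine receptor and JAK-STAT hosts 0 were called after Ebf1 in Ebf1-KO by edgeR or DESeq2, with 2 lower and 0 higher at an unadjusted p under 0.05. Of 11 homing and adhesion hosts, Itgal and Itgb7 fell after Ebf1 in Ebf1-KO and 0 rose. The shares of all genes tested in that comparison were 2.21% higher and 0.763% lower. Of the 13 genes of the homing list without a member, 4 fell and 1 rose. The Itgal call was lost without either Ebf1 library (-0.82, adjusted p = 0.37, and -1.1, 0.13), the second empty-vector library (-0.64, 0.49) or the second library of Pax5-KO with Pax5 (-0.96, 0.052).

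Hosts that fell with Ebf1 in both knockouts included Itgb7, the beta-7 integrin subunit, with 2 members of scores 113 and 82. It was at 2.07 and 2.8 CPM in wild-type cells, 60.5 and 75.5 in Ebf1-KO and 9.06 and 6.1 after Ebf1, a log2 change of -3.17 ± 0.46 (adjusted p = 9.3e-04). In Pax5-KO it went from 36.5 and 50.6 to 4.57 and 14.9 CPM with Ebf1 (-2.15 ± 0.44, adjusted p = 0.016), a call lost without the second Pax5-KO empty-vector library (-1.89, adjusted p = 0.13). Igf1, a growth factor with 3 members, went from 40.5 and 50.8 to 5.54 and 5.71 CPM in Ebf1-KO and from 7.68 and 5.64 to 0.661 and 0.728 in Pax5-KO. Its call in Ebf1-KO was lost without the first Ebf1 library (-3.00, adjusted p = 0.056) or the second (-3.04, adjusted p = 0.061). Chst11, Lat2, Rinl and Psd3 were also called lower with Ebf1 in both knockouts, with log2 changes of -1.49 to -3.01 in Ebf1-KO. Itgb7 and Rinl were called lower with Pax5 in Pax5-KO too, so a fall was not seen with the Ebf1 vector alone. Both Pax5 calls were lost without the first Pax5 library or the second empty-vector library. Chst11 was called higher with Pax5 in Ebf1-KO, a call lost without either empty-vector library. The Psd3 call in Ebf1-KO was lost without any 1 of the 4 libraries compared (adjusted p = 0.051 to 0.42), and its call in Pax5-KO without the first empty-vector library (-1.35, adjusted p = 0.1). The Chst11 call in Pax5-KO was lost without any 1 of 11 of the 14 libraries (adjusted p = 0.053 to 0.13), most of them outside the comparison. Lat2 and Rinl lost the call in Ebf1-KO, with adjusted p up to 0.21 and 0.11.

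Hosts that are also markers of other lineages moved with genotype. Of 7 T-lineage hosts, Cd5, Notch1, Tcf7 and Zap70 were higher and Il2ra lower in Ebf1-KO than in wild type. Only Il2ra was called after Ebf1, upward. The shares of all genes tested were 8.02% higher and 6.65% lower in Ebf1-KO, and 2.21% higher after Ebf1. Of 10 tested T-lineage markers without a member, 7 were higher and 1 lower in Ebf1-KO. Their median log2 change was 5.12, against 1.05 in the 7 hosts. Tcf7, a T-lineage factor, was at 1.92 and 0.458 CPM in wild-type cells, 35.5 and 54.7 in Ebf1-KO and 41.1 and 38.8 after Ebf1. Itgam, a myeloid integrin with 3 members, was at 23.3 and 23.2 CPM in wild-type cells, 76.6 and 108 in Ebf1-KO and 29.3 and 18.7 after Ebf1 (log2 change -1.94 ± 0.36, adjusted p = 0.006). That call was lost without the second Ebf1 library (-1.65, adjusted p = 0.13) or the second empty-vector library (-1.65, 0.08). Csf1r, the M-CSF receptor, had no call after Ebf1 (22.5 and 16.4 against 13.3 and 15.2 CPM). Over the 19 myeloid markers, the sum was 499 and 467 CPM after Ebf1 in Ebf1-KO; its part in these values was not tested.

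**Figure D4:**
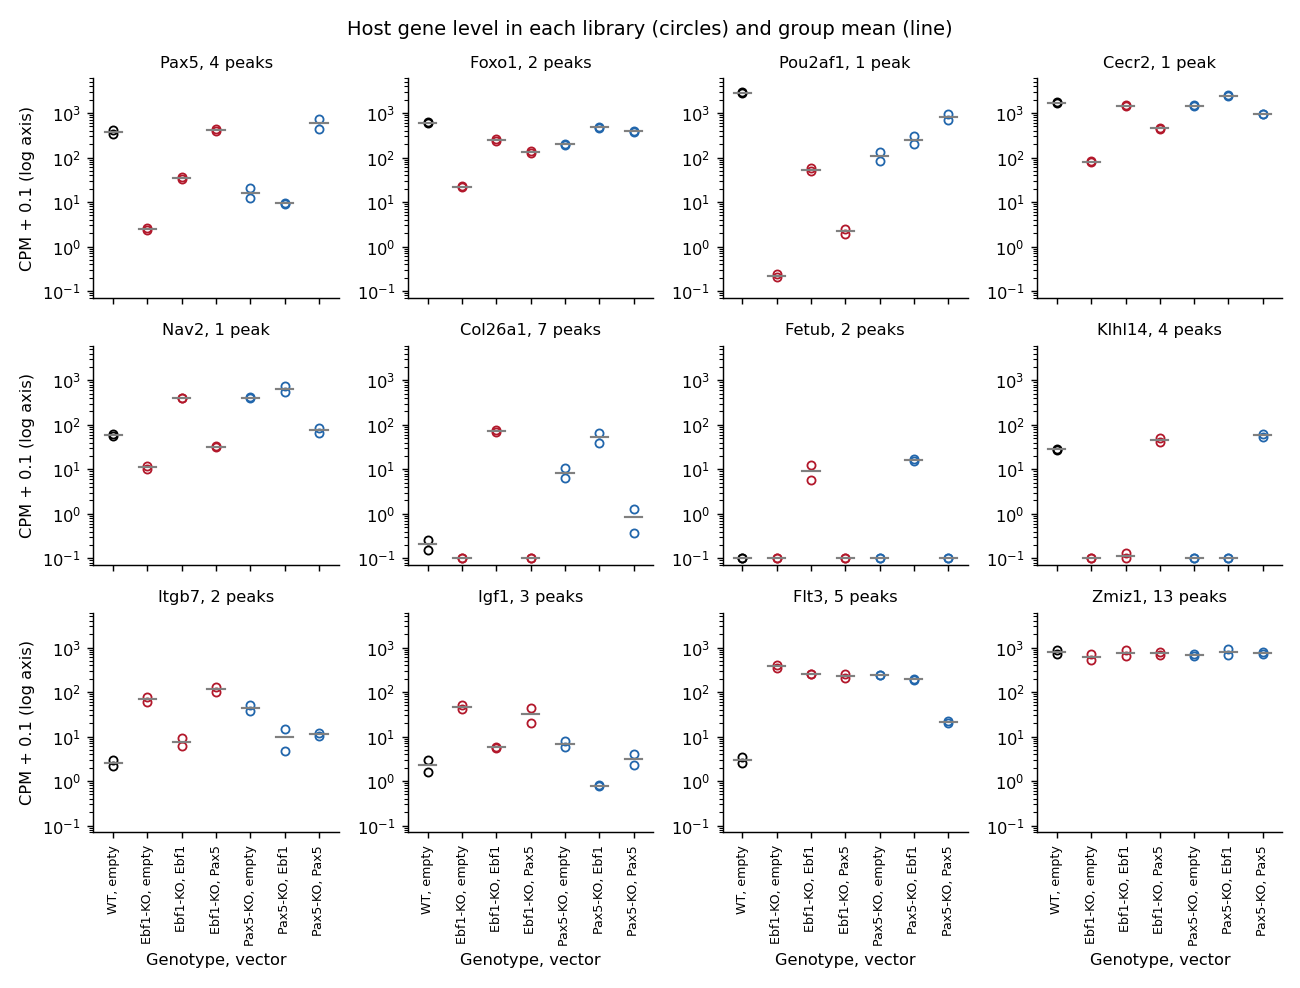
Level of 12 host genes in each library, as CPM plus 0.1 on a log axis, with genotype and vector along the horizontal axis and a line at each group mean. Pax5, Foxo1 and Pou2af1 sit lowest in Ebf1-KO with empty vector, Fetub is above 0 only with the Ebf1 vector, and Zmiz1, with 13 members, stays between 513 and 934 CPM.

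The hosts with the widest gap between wild type and Ebf1-KO ran in both directions. Cplx2, a synaptic fusion regulator with 1 member of score 56, was at 586 and 557 CPM in wild type but at 0 in both Ebf1-KO libraries. Taking 3 counts over the group as the floor for a count of 0, it was at least 9676-fold lower. Enpep, the aminopeptidase known as BP-1 on early B cells, was at 279 and 241 CPM in wild-type libraries against 0.0458 and 0.0345 in Ebf1-KO. Klhl14 was at 29.1 and 27.5 CPM in wild type but at 0 in both libraries of Ebf1-KO, at least 479-fold lower. Slamf6, a lymphocyte receptor, was at 20.7 and 31.4 CPM in wild type but at 0 in both libraries of Ebf1-KO. In the other direction Smim5, Gpr141, Rab7b and Gpr35 were at 0 in both wild-type libraries. Gpr141, an orphan receptor, reached 24.0 and 14.8 CPM in Ebf1-KO, at least 238-fold higher, and Smim5 26.6 and 26.8 CPM. Ptprf, a receptor phosphatase, was at 0 and 0.0572 CPM in wild-type libraries against 81.8 and 90.6 in Ebf1-KO.

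These hosts had different levels with the 2 vectors. Klhl14 had 1 count over both libraries of Ebf1-KO with Ebf1 and 0 with Ebf1 in Pax5-KO, but was at 40.8 and 51.5 CPM with Pax5 in Ebf1-KO and 61.1 and 53.9 with Pax5 in Pax5-KO. Slamf6 was at 0.241 and 0.228 CPM after Ebf1 in Ebf1-KO and 45.0 and 42.4 after Pax5. Enpep was at 0 after Ebf1 in Ebf1-KO, 1.08 and 0.485 CPM after Pax5 in Ebf1-KO, and 64.4 and 66.0 after Pax5 in Pax5-KO. Cplx2 was at 7.33 and 10.6 CPM after Ebf1 in Ebf1-KO, with 2 counts in all after Pax5 there. All 4 hold a member, with top scores of 19 to 101.

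Several hosts that rose after Ebf1 were at or near 0 in wild-type libraries. Col26a1, a collagen gene with 7 members (scores 28 to 446, the strongest at chr5:136753138-136753458), was at 0.155 and 0.0572 CPM in wild type but at 0 in both Ebf1-KO libraries. It reached 76.5 and 69.1 CPM after Ebf1, at least 1234-fold higher (adjusted p = 9.3e-06), and was at 0 after Pax5. In Pax5-KO it rose from 10.4 and 6.26 to 39.8 and 65.2 CPM with Ebf1 and was at 0.279 and 1.19 with Pax5. The Pax5-KO call with Ebf1 was lost without the first empty-vector library (log2 change 3.07, adjusted p = 0.062) or the second (2.34, adjusted p = 0.21). Fetub, a secreted protease inhibitor with 2 members of scores 157 and 152, was at 0 in all groups without the Ebf1 vector. It was at 5.54 and 12.3 CPM in Ebf1-KO cells given Ebf1, with 17.0 and 15.4 in Pax5-KO cells, at least 151-fold and 299-fold higher, and DESeq2 did not call it in either (adjusted p = 0.47 and 0.19).

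Tnnt2, cardiac troponin T with a member of score 120, went from 0.183 and 0.173 to 150.2 and 181 CPM with Ebf1 in Ebf1-KO and from 0.142 and 0.351 to 14.5 and 51.3 in Pax5-KO. Eps8l2, an actin regulator, went from 1.28 and 0.725 to 132 and 148 CPM in Ebf1-KO, then from 1.28 and 0.351 to 239 and 261 in Pax5-KO. Heyl, a Notch-pathway repressor, reached 26.3 and 31.3 CPM with Ebf1 in Ebf1-KO cells, then 16.3 and 35.2 in Pax5-KO cells, above its 4.66 and 3.32 CPM in wild type. In these 3 genes the Ebf1 libraries of both knockouts lay above every wild-type and empty-vector library. Eps8l2 and Heyl were also called higher with Pax5 in Pax5-KO, so a rise was not seen with the Ebf1 vector alone. Both Pax5 calls were lost without the second Pax5-KO empty-vector library (log2 changes of 2.94 and 4.25).

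The Ebf1 vector was tested in 2 knockouts that share no library, so the calls could be set side by side. Of 170 hosts higher in Ebf1-KO and 126 higher in Pax5-KO, 65 were the same genes, 38.2% and 51.6% of the lists. Of 37 and 76 lower hosts, 11 were shared (29.7% and 14.5%), among them Bcl2, Chst11, Igf1, Itgal, Itgb7, Lat2, Psd3, Rinl, Runx2 and Vsir. Each of the 11 lost at least 1 of its 2 calls when some library was left out. Among other genes 33 of 74 and of 193 lower calls were shared, 44.6% and 17.1%, a larger share of both lists than in hosts. Only Cdh1 and Chst15, named here because they were the 2 exceptions, were called higher in Ebf1-KO and lower in Pax5-KO. Among other genes the shared higher calls were 63 of 151 and of 129, or 41.7% and 48.8%, against 38.2% and 51.6% in hosts. The Pax5 vector, tested in the same way, raised 249 and 120 hosts with 66 in common (26.5% and 55%), against 22.5% and 39.8% in other genes. Lists of unlike vectors overlapped too. Of the 170 hosts raised by Ebf1 in Ebf1-KO, 36 (21.2%) also rose with Pax5 in Pax5-KO. Of the 37 lowered, 15 (40.5%) also fell with Pax5 in Pax5-KO, where 146 hosts fell. Of 249 hosts raised and 37 lowered by Pax5 in Ebf1-KO, 26 (10.4%) and 0 were called alike with Ebf1 in Pax5-KO. These shares have no replicate error of their own.

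**Figure D5:**
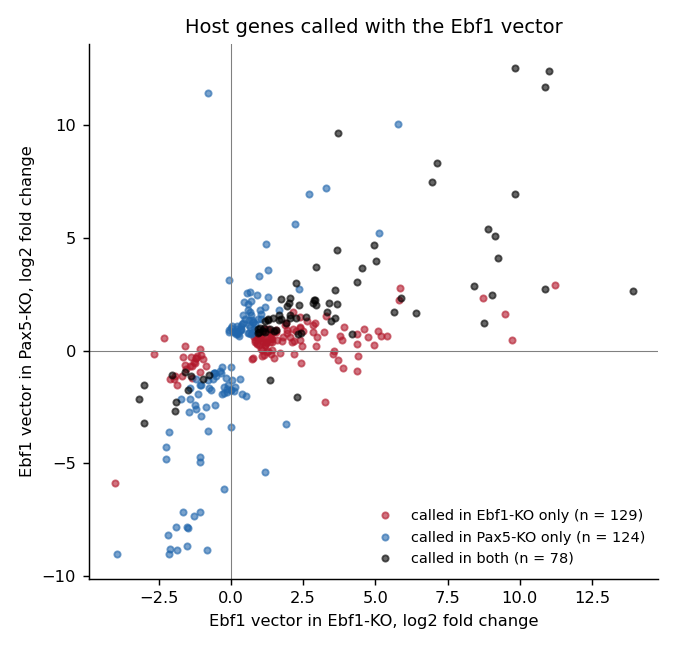
Log2 fold change of host genes with the Ebf1 vector in Ebf1-KO (horizontal) and Pax5-KO (vertical), for hosts called in at least 1 of them. Black points are the 78 hosts called in both, which lie in the upper right or lower left except for 2; the largest values rest on empty-vector groups at or near 0 counts and are not bounds.

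The Ebf1 effect was also compared between the knockouts by a test of the difference. By this test 40 hosts had a smaller or more negative effect in Pax5-KO (1.26%, with 0.577% of all genes) and 2 a larger or more positive one (0.0628%, with 0.0344% of all genes), Lrp1 and Atp10a. Without the second library of Pax5-KO with Ebf1 these counts were 161 and 42. The 40 became 18 and 24 without the first and second Ebf1-KO empty-vector library, and 23 without the second library of Ebf1-KO with Ebf1 or of Pax5-KO with empty vector. The 2 became 0 to 4 without any 1 of the other 13 libraries, and 4 with the replicate number as a block. For Nav2, with 1 member of score 44 in a 651 kb gene, the level rose from 11.8 and 10.1 to 399.9 and 404 CPM in Ebf1-KO and stood at 416 and 390.1 in Pax5-KO with empty vector and 539 and 735 with Ebf1. The difference of effects was -4.54 ± 0.30 on the log2 scale (adjusted p = 9.6e-07). Cecr2, a chromatin remodelling subunit, rose from 79.5 and 83.2 to 1456 and 1488 CPM in Ebf1-KO and from 1531 and 1405 to 2421 and 2516 in Pax5-KO, a difference of -3.43 ± 0.24 (adjusted p = 1.3e-06). The Cecr2 call in Pax5-KO alone was lost without the first empty-vector library (0.81, adjusted p = 0.062) or the second (0.69, adjusted p = 0.19). In wild-type libraries Nav2 was at 61.2 and 56.8 CPM and Cecr2 at 1669 and 1782. Pou2af1 and Pax5 had differences in the same direction, -7.52 ± 0.52 and -4.68 ± 0.41. Pax5 is the gene knocked out in Pax5-KO, so its difference cannot be told apart from that knockout.

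Near Myc, the members within 2 Mb were 3 peaks in Pvt1, the non-coding gene downstream of Myc, at 232, 245 and 260.1 kb from the Myc start. Their scores were 69, 23 and 26. Contacts with the Myc start came from H3K4me3 PLAC-seq, which sequences contacts of fragments that carry this promoter mark. Each genotype has 1 pooled profile, of 3 wild-type and 4 Ebf1-KO samples, without replicate values. The fragments overlapping the 3 peaks held 0, 6 and 4 of 9143 wild-type contacts, against 3, 4 and 6 of 17349 in Ebf1-KO. With exact Poisson intervals, which cover counting error only, the shares of the profile were 0% (0 to 0.0403%), 0.0656% (0.0241 to 0.143%) and 0.0437% (0.0119 to 0.112%) in wild type. In Ebf1-KO they were 0.0173% (0.00357 to 0.0505%), 0.0231% (0.00628 to 0.059%) and 0.0346% (0.0127 to 0.0753%). All 3 pairs of intervals overlap, which is no test of a difference, and counts this low leave each share poorly determined. Over fragments within 5 kb of the peak at 232 kb, a window added after seeing the data, the share was 0.405% (0.285 to 0.558%) in wild type, 37 contacts, and 0.669% (0.552 to 0.802%) in Ebf1-KO, 116 contacts. Pvt1 was at 23.5 and 40.6 CPM in wild-type cells, 19.3 and 8.05 in Ebf1-KO and 11.2 and 12.2 after Ebf1, and was called in no comparison.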

How the data were processed

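Gene counts are raw exon counts per gene that the authors made with HOMER on mm10, per the file headers. Per the file headers, the peak list gives the authors' normalized tag signal, findPeaks score, fold (ratio) over input and focus ratio (a fraction of tags near the centre). The submitters' processing notes name HOMER 4.8 among other tools. The deposited contact profiles hold a count per fragment and leave out fragments with 0. Counts were fitted over the 7 groups with edgeR 4.0.16 in R 4.3.3 (TMM, filterByExpr, quasi-likelihood test, Benjamini-Hochberg threshold 0.05). All adjusted p-values are from this fit unless DESeq2 1.42.0 is named, and ± is the standard error. The score was compared only within the list. Tested on simulated data for Ebf1 in Ebf1-KO, the fit found 78 of 100 genes given a log2 change of 2, and called 7 of 14025 without one. The changed genes were drawn from those over 5 mean CPM. The groups otherwise had the same means, and no effect of the date-like code was simulated. These rates therefore need not hold for the real libraries or for hosts of low level. Of the 3655 hosts, 3539 matched a RefSeq symbol. No genome was used here, so exon, intron and peak-centre sequence were not analysed here. The members and lists were chosen with earlier results of these data known. Named hosts were the 8 with the strongest members, the 8 with most members, the most changed called hosts with at least 5 CPM and no overlap, those called alike with Ebf1 in both knockouts, up to 4 per list, the 4 clearest differences between knockouts and Pvt1; Cd22, Capzb and Mier1 were added for their sequences. Some hosts that this rule names are not reported here.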

Additional observations from a re-analysis of the deposited data

Results flagged for a closer look

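By the test of the difference itself, the effect of the Ebf1 vector differed between Pax5-KO and Ebf1-KO for 8 of the named hosts. All 8 differences were towards a smaller or more negative effect in Pax5-KO. Over all hosts 40 differences were called in that direction and 2 in the other, and over all genes tested 84 and 5. Some named hosts were picked for a large Ebf1 effect in Ebf1-KO or for this difference itself. The shared direction of the 8 is therefore no separate result. One of these hosts, Pax5, is the gene knocked out in Pax5-KO, so its difference cannot be told apart from that knockout. The Ebf1 effect on Pax5 there was -0.79 and was not called. The differences on the log2 scale were -7.52 for Pou2af1, -4.68 for Pax5, -4.54 for Nav2, -3.43 for Cecr2, -2.18 for Foxo1 and -1.58 for Prkcb. For Col26a1 (-11.23) and Cplx2 (-8.15) the Ebf1-KO empty-vector libraries held 0 counts, so these 2 values depend on the prior count and are no bounds. The gap of a single library to the rest of its group was not tested, which needs at least 4 libraries a group; counts with each library left out are given with the results.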

How the results depend on the processing

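Depth and number limit these results: 2 libraries per group, 1 merged peak list and 1 pooled contact profile per genotype. Call counts with 1 library left out ranged from 210 to 432 higher and 257 to 535 lower hosts in Ebf1-KO against wild type, 214 to 495 and 144 to 395 in Pax5-KO against wild type, 81 to 221 and 8 to 75 after Ebf1 in Ebf1-KO, 74 to 384 and 7 to 73 after Pax5 in Ebf1-KO, 31 to 263 and 23 to 324 after Ebf1 in Pax5-KO, 49 to 181 and 47 to 240 after Pax5 in Pax5-KO, and 0 to 42 and 18 to 161 for the difference of the Ebf1 effect. Where a lone sample remained it was assumed to vary like the other groups. With no filter on low counts, which tests more genes, lower hosts numbered 82 after Ebf1 and 73 after Pax5 in Ebf1-KO, 165 after Ebf1 and 250 after Pax5 in Pax5-KO; higher hosts numbered 225 after Ebf1 in Pax5-KO; and the difference gave 23 higher and 90 lower. With DESeq2 lower hosts numbered 82, 81, 195 and 278 in the same order, higher hosts 432 after Pax5 in Ebf1-KO, 295 after Ebf1 in Pax5-KO and 187 after Pax5 in Pax5-KO, and the difference gave 22 and 83; the cause was not tested. TMM against RLE scaling changed no count by over 1.5 times. Of 3438 alternative values of called results of the named hosts, 3245 kept their call, 193 lost it and 0 changed direction.

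With the replicate number as a block, 63 hosts were lower after Pax5 in Ebf1-KO and 4 had a larger Ebf1 effect in Pax5-KO; every other count stayed within 1.5 times, and 191 of 191 named calls held. Deviations of same-numbered libraries correlated at 0.076 to 0.236 among knockout groups but -0.059 to 0.013 with wild type, and the replicate number follows the date-like header code in all 7 groups, so this block is also the fit with that code as a term.

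Taking members with at least the median score of all peaks left 3314 members, and higher hosts were then 6.89% after Ebf1 and 8.92% after Pax5 in Ebf1-KO, and 4.81% after Ebf1 and 4.51% after Pax5 in Pax5-KO. The other membership rules, 2 of them (hosts of odd span, RefSeq starts) added after seeing the data, changed no share beyond its interval. Counting contacts within 5 kb of each Pvt1 peak, also added later and larger by construction, gave 0.405% (0.285 to 0.558%), 0.448% (0.322 to 0.608%) and 0.361% (0.248 to 0.507%) of the profile in wild type and 0.669% (0.552 to 0.802%), 0.421% (0.33 to 0.529%) and 0.559% (0.453 to 0.682%) in Ebf1-KO, with exact Poisson intervals. The motif windows of other sizes and the contact count over neighbouring fragments were not run, since they need a genome or fragment map.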
